A study of Rattus norvegicus with 28 samples.

Results

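Chromatin accessibility in dorsal root ganglia (DRGs) after peripheral nerve injury was compared with that of uninjured ganglia. All 56810 consensus regions of the injury table entered the comparison, out of 56810 in the series, so no region was picked. The injury was chronic constriction injury (CCI), in which 4 sutures are tied loosely around the sciatic nerve. The question was which regions open or close in the ganglia that hold the injured neurons' cell bodies.

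The DRG holds the cell bodies of the sensory neurons that carry touch, temperature and pain from the body, wrapped by satellite glia and accompanied by Schwann cells, macrophages and vessels. After axon injury these neurons switch on a regeneration programme, glia react and immune cells enter. ATAC-seq reads out open chromatin: a transposase inserts adapters where DNA is not wrapped in nucleosomes, as at active promoters and enhancers, and accessibility is read from how often it inserted there. In whole ganglia a change in accessibility per cell and a change in the mix of cells cannot be told apart.

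All 9 libraries came from male Sprague-Dawley rats, 12 weeks old, and each held the L4 to L6 ganglia of 1 rat. The 6 CCI libraries were taken from the injured side at 14 days, and only injured rats whose mechanical threshold had fallen by at least 50% were used. The 3 naïve rats had no operation, and the series holds no sham-operated group. Effects of the operation itself and of the nerve injury can therefore not be told apart. Sequencing took 2 runs for each naïve library and for CCI replicates 1 and 2, whereas each of CCI replicates 3 to 6 had a single run. Inflamed ganglia, taken 48 h after complete Freund's adjuvant (CFA) was injected into the hind paw, are given beside the CCI values where stated; that comparison uses the same 3 naïve rats in a table normalized on its own. Every level below is a log2 normalized coverage as deposited, and every difference is a CCI mean minus a naïve mean on that log2 scale. A region is called gained or lost at a limma p below 0.001, unadjusted.

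The libraries differed in more than their labels. Because reads are counted in whole numbers, each library holds a limited set of distinct values, and the step ratio counts these steps: it divides the 90th by the 25th percentile of the regions' positions among the library's distinct values, so a high ratio means a wide span between open regions and low ones. It was 7.97 to 10.3 in the naïve libraries and 5.24 to 7.77 in the CCI libraries, and these ranges do not overlap. The step ratio and the injury can therefore not be told apart in full, and values with the step ratio as a covariate are given beside the results. The labelled tissue was not checked against marker genes, because the regions carry no gene names and no rn6 annotation was used here. The 11 regions of the Y chromosome had a median level of 5.37 to 6.25 in all 9 libraries of these male rats.

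Sequences were at hand for a few loci, and they are shown because the results return to these loci. Msx2, a homeobox transcription factor, and Wdr60, which encodes an intermediate chain of the motor that carries cargo back along cilia, each have a start within 1 kb of a region that was lost after CCI. The stretch from 250 to 101 bases before each gene's annotated start is from RefSeq on build GRCr8, where Wdr60 is named Dync2i1. It lies at 17:11102034-11102183 on the plus strand for Msx2 and at 6:143331675-143331824 on the minus strand for Wdr60. Capitals mark the motifs found on either strand among the 5 searched. These were a forkhead motif (CTGTTTAC), the AP-1 motif (TGANTCA), the cAMP response element (TGACGTCA), the GC box (GGGCGG) and the CCAAT box (CCAAT). In the Msx2 stretch the second CCAAT box overlaps a copy on the other strand (ATTGG), whose last letters are left in lower case.
Msx2: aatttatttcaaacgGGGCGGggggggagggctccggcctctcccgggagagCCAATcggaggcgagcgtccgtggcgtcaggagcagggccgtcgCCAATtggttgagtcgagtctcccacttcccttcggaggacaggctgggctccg
Wdr60: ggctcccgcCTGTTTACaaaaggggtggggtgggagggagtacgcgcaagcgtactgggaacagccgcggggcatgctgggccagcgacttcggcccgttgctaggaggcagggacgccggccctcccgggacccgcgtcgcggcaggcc
Both stretches were rich in CpG, with 14 CpG in that of Msx2 and 16 in that of Wdr60 against a median of 3 over 33469 promoter stretches of the same 150 bases. The forkhead motif of the Wdr60 stretch occurred in 0.562% of them, the GC box of the Msx2 stretch in 16.5% and the CCAAT box in 21.5%. The AP-1 motif occurred in 3.89% and the cAMP response element in 0.478%, and neither was in these 2 stretches.

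For reporter assays 4 of the regions were cloned into a plasmid, and the primers show where each insert ends. Capitals mark the restriction sites added for cloning, MluI in each left primer and BglII in each right primer.
Wdr60 left: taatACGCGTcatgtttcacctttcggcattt
Wdr60 right: gcgcAGATCTgaattaaaggtgtgcgctgc
Mtdh left: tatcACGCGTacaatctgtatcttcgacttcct
Mtdh right: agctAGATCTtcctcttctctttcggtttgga
Rrm2b left: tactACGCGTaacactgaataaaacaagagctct
Rrm2b right: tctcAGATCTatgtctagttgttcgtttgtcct
Arap2 left: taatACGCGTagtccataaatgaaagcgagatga
Arap2 right: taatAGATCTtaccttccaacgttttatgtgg
The cloned intervals on rn6 were chr6:144123318-144124010 (693 bp), chr7:72282622-72283216 (595 bp), chr7:76825820-76826319 (500 bp) and chr14:48665279-48665702 (424 bp). Each holds the whole accessible region with 11 to 74 bases beyond it on either side.

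After CCI 426 regions were gained, 0.750% of all regions, and 91 were lost, 0.160% of all. After adjustment over all regions by Benjamini and Hochberg 9 regions stayed below 0.05, 0.0158% of all, and all of these were gained. Gained regions had a median difference of 1.20 and lost regions one of -0.91. Counted without any model the balance was the other way round. In 2185 regions, 3.85%, every CCI library lay above every naïve library, and in 2989 regions, 5.26%, every CCI library lay below. The regions that lay wholly below naïve moved little, with a median difference of -0.48 at a median level of 6.44, and 3.04% of them were called. Those wholly above moved by 0.82 at a median level of 5.67, and 19.2% of them were called. Over all regions the median difference was -0.04. The 9 columns have nearly the same distribution of values, as described under the processing. A net opening or closing can therefore not be read from these counts.

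How many regions were called depended on the libraries used and on the step ratio. A fit with fewer libraries, or with a covariate that goes with the group, has less power to call a region. Fewer calls alone therefore do not show smaller differences. With only the 2 CCI libraries of 2 runs, 89 regions were gained (0.157%) and 38 lost (0.0669%). Of these 48 and 4 were also called with all 6. In this fit the 426 gained regions had a median difference of 1.07 and the 91 lost regions one of -0.78. With the step ratio as a covariate 40 regions were gained (0.0704%) and 18 lost (0.0317%). They included 11 of the 426 gained regions and none of the 91 lost regions, although every gained and lost region kept its direction, with a median difference of 0.69 for the gained and -0.64 for the lost regions. Between the CCI libraries of 1 run and those of 2 runs 58 regions differed at p below 0.001 (0.102%). None of them was among the gained or lost regions. A share of 0.102% is about that expected by chance at this threshold. The threshold also favours called regions with a small spread within groups, so the missing overlap cannot show whether the runs affect the calls.

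Gene names below are those of the nearest annotated gene in the study's list. Only the regions named for Msx2, Wdr60, Dlg3, Nr3c2 and Cxxc4 are within 1 kb of the gene's start there; the others lie farther away, some of them far outside the gene, and a link to the gene was not tested.

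The 4 regions with the largest change lay side by side on chromosome 8. The genes assigned to them, Vom2r17 and Vom2r18, encode receptors for pheromones of the vomeronasal organ that occur in arrays of similar copies. At chr8:4337259-4338234 (Vom2r17) the naïve libraries stood at 0.51, 0.11 and 0.11 and the CCI libraries at 6.09, 5.82, 6.70, 4.79, 5.16 and 6.43. The naïve libraries were thus at the bottom of the scale, and the lowest CCI library lay 4.29 above the highest naïve one. The difference was 5.59 ± 0.36 (SE), with an adjusted p of 0.000134 by limma.

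At the neighbouring Vom2r17 region, chr8:4322772-4323450, the levels were 1.47, 2.55 and 1.58 in naïve and 5.17 to 6.33 in CCI libraries. At the Vom2r18 regions, chr8:4292048-4292933 and chr8:4288257-4288665, the naïve libraries reached at most 1.47 and 2.31 and the CCI libraries at least 5.15 and 4.67. All 4 regions were higher in every CCI library than in any naïve one. Their differences were 3.64 to 5.64, stayed at 3.06 to 5.02 with the step ratio as a covariate, and kept a p below 0.001 in limma without any 1 of the 9 libraries. Against the same naïve libraries the CFA difference was 2.03 to 4.01. Reads of similar receptor copies can be assigned to the wrong copy. Reads with a mapping quality below 10 had been removed, and how alike these copies are was not measured. Wrong assignment was not tested, and the place of the signal stays uncertain.

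The other 5 regions with an adjusted p below 0.05 in limma were narrow, low regions to which no gene was assigned here. At chr17:42278035-42278309 (275 bp) the naïve libraries stood at 3.39, 3.73 and 3.28 and the CCI libraries at 4.55, 4.61, 4.87, 4.86, 4.76 and 4.73, so the CCI libraries were close together and clear of the naïve ones. The difference was 1.26 ± 0.16 (SE), with an adjusted p of 0.039. At chr2:107855052-107855418 the levels were 3.49 to 3.73 in naïve and 4.67 to 5.27 in CCI libraries. At chr1:59366869-59367224 they were 3.12 to 3.61 and 4.37 to 5.10. The other regions within 50 kb had a median difference of -0.29 at the first of these 3 regions (5 others), 0.44 at the second (1 other) and -0.20 at the third (1 other).

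At the remaining 2, chr2:286492-286773 and chr2:1113372-1113850, the CCI libraries lay 1.02 and 1.09 above the highest naïve library. There all 6 and all 11 other regions within 50 kb were higher in CCI as well. With the step ratio as a covariate the differences of these 5 regions were 1.03 to 1.74, and 2 of the 5, at chr1:59366869-59367224 and chr2:286492-286773, stayed below 0.001. The CFA difference at the same 5 regions was 0.27 to 0.80.

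A gained region at chr13:10820032-10820423 had no other region within 50 kb, and its nearest annotated gene, the odorant receptor gene Olr1065, is distant. It stood at 3.14, 3.19 and 2.82 in naïve and at 3.93, 4.67, 4.67, 4.90, 4.58 and 4.99 in CCI libraries. All CCI libraries were above all naïve ones, by at least 0.74. The difference was 1.58 ± 0.22 (SE), with an adjusted p of 0.069 by limma, and with the step ratio as a covariate it was 1.12.

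Among the other gained regions with the smallest p or the largest differences, chr3:144247179-144248132 stood at 4.65, 5.29 and 5.19 in naïve and at 6.47, 7.22, 7.27, 6.94, 6.16 and 7.16 in CCI libraries. At chr2:219177993-219178373 the levels were 3.41 to 4.02 in naïve and 4.67 to 5.05 in CCI libraries. At chr2:197345755-197345971, 217 bp wide, they were 1.47 to 3.12 and 3.95 to 5.43. The naïve libraries of the last region were widely spread, and those of the other 2 were not. The differences were 1.83, 1.15 and 2.09, and all 3 stayed at a limma p below 0.001 without any 1 library.

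The lowest p among the lost regions belonged to one whose nearest annotated gene, not within 1 kb, is Grik4, which encodes a kainate-type glutamate receptor subunit. At chr8:47237180-47237538 the naïve libraries stood at 5.24, 5.12 and 5.50 and the CCI libraries at 4.30, 4.37, 4.18, 4.19, 4.34 and 4.37. The CCI libraries were close together and all lay below the naïve ones, by at least 0.74. The difference was -0.99 ± 0.15 (SE), 1.99-fold lower, with a limma p of 2.3e-05 and an adjusted p of 0.076.

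A promoter stretch of Msx2 is shown above on another build, and its overlap with the accessible region was not checked. The region at the start of Msx2 was chr17:11683581-11684211. It stood at 6.31, 5.85 and 5.93 in naïve and at 5.27, 5.12, 5.05, 4.73, 4.84 and 4.81 in CCI libraries. The groups were 0.58 apart at their nearest libraries. The difference was -1.06 ± 0.18 (SE), with an adjusted p of 0.077 by limma, and its p stayed below 0.001 without any 1 library. With the step ratio as a covariate it was -0.81 with an unadjusted limma p of 0.019.

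At the start of Wdr60 the region was chr6:144123384-144123972, and its overlap with the promoter stretch shown was not checked either. The region stood at 7.41, 7.33 and 7.10 in naïve and at 6.88, 6.51, 6.05, 6.15, 6.28 and 6.09 in CCI libraries. Every CCI library was lower, CCI replicate 1 by the smallest margin. The difference was -0.95 ± 0.20 (SE), with an adjusted p of 0.102 by limma. Its p rose above 0.001 when any of 7 of the 9 libraries was left out, all but CCI replicates 1 and 2, to at most 0.0037, and the difference was -0.55 with the step ratio as a covariate.

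Dlg3 encodes a scaffold protein of glutamate synapses. Its region, chrX:70596272-70597179, stood at 5.72, 5.87 and 5.64 in naïve and at 4.51 to 5.10 in CCI libraries. The difference was -0.95 ± 0.18 (SE), 1.94-fold lower, with an adjusted p of 0.087 by limma, and it was -1.23 with the step ratio as a covariate. Without naïve replicate 2 the limma p was 0.0014. The nearest naïve and CCI libraries were 0.53 apart, and all 5 other regions within 50 kb were also lower in CCI.

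Cxxc4, which encodes a zinc finger protein that restrains Wnt signalling, had the smallest loss of the regions within 1 kb of a gene start. At chr2:239413846-239414572 the naïve libraries stood at 6.13, 6.16 and 5.87 and the CCI libraries at 5.12 to 5.45. The difference was -0.75 ± 0.15 (SE), with an unadjusted limma p of 0.00033. Nr3c2 encodes the mineralocorticoid receptor. Its narrow region of 167 bp, chr19:34760039-34760205, stood at 5.94, 5.71 and 5.72 in naïve and at 4.53 to 5.47 in CCI libraries, and CCI replicate 1 was nearest to naïve. Its limma p passed 0.001 without any of 8 of the 9 libraries, all but CCI replicate 1, with a highest p of 0.0055. For Cxxc4 this happened without naïve replicates 1 or 2, with a highest p of 0.0031.

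The region chr1:92513274-92513499 had no other region within 50 kb, and its nearest annotated gene, at a distance, is Tshz3, which encodes a zinc finger homeobox factor. The highest naïve library stood at 4.26, and the CCI libraries at 2.82 to 3.72, at least 0.28 below the lowest naïve one. The region was 2.01-fold lower in CCI, with an adjusted p of 0.099 by limma, and the log2 difference was -1.07 with the step ratio as a covariate. Its call was lost without naïve replicate 1 or 3, with a highest limma p of 0.0021. At the 7 lost regions named for Grik4, Msx2, Wdr60, Dlg3, Cxxc4, Nr3c2 and Tshz3 the difference between CFA ganglia and the same naïve libraries was -0.64 to -1.01. These gene names come from a list of regions called in both comparisons, so the shared direction was fixed by that choice.

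**Figure D1:**
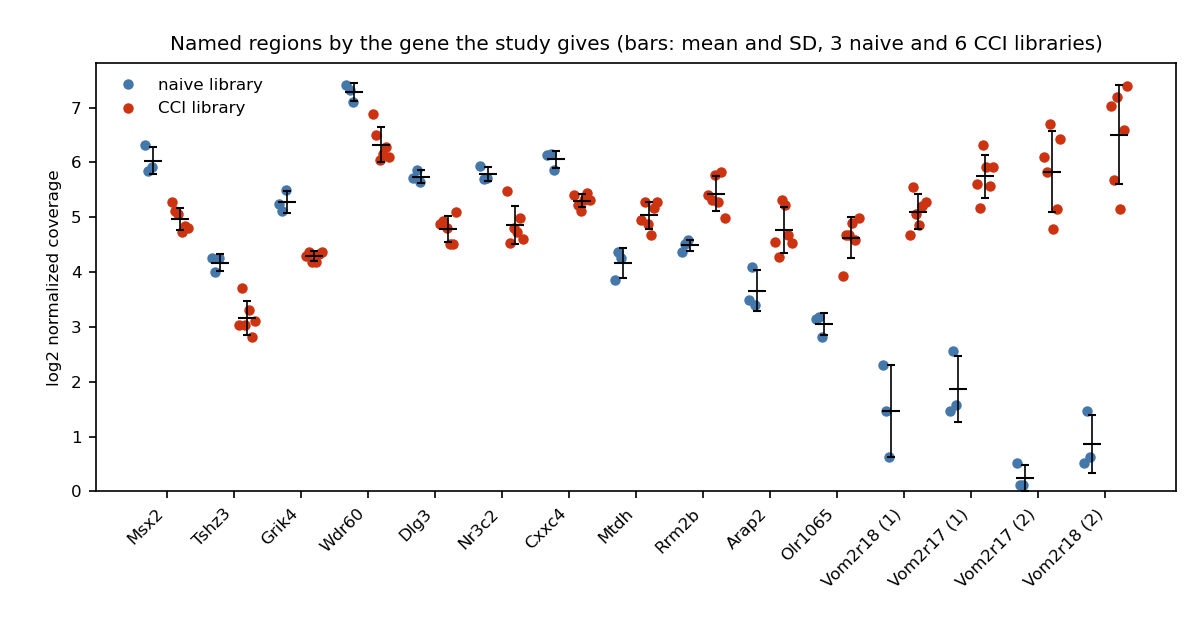
Log2 normalized coverage (y axis) of the 15 regions described here by their nearest annotated gene, out of 29 to which such a name was matched, for 3 naïve (blue) and 6 CCI libraries (red), with mean and SD; regions run from the largest loss to the largest gain. At each region shown the CCI libraries do not overlap the naïve ones, and at the 4 Vom2r regions the naïve libraries lie at or below 2.55.

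The other 3 regions cloned for reporter assays, whose primers are shown above, were gained. Rrm2b, the nearest annotated gene of the first, encodes a p53-induced subunit of ribonucleotide reductase. That region, chr7:76825894-76826308, stood at 4.37, 4.51 and 4.58 in naïve and at 5.41, 5.32, 5.78, 5.27, 5.82 and 4.99 in CCI libraries. The difference was 0.95 ± 0.20 (SE), with an adjusted p of 0.102 by limma, and 1.11 with the step ratio as a covariate. It was no longer called without naïve replicate 1, 2 or 3, with a highest limma p of 0.0034.

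The second, chr7:72282656-72283204, lies far from its nearest annotated gene, Mtdh, which encodes metadherin, a protein of the endoplasmic reticulum known from tumours. It stood at 3.85 to 4.37 in naïve and at 4.67 to 5.27 in CCI libraries. The third, chr14:48665324-48665682, is named for Arap2, a GTPase-activating protein for Arf, and stood at 3.41 to 4.09 and at 4.27 to 5.32. There the groups were 0.18 apart at their nearest libraries, the smallest gap among the 4 cloned regions. The adjusted p was 0.103 at the second region and 0.110 at the third by limma. When 1 library was left out, the second stayed called only without CCI replicate 3 or 4, and the third only without naïve replicate 2 or CCI replicate 2. The highest limma p in these fits was 0.0061 and 0.0078.

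Lost regions often had a close neighbour. Of the 91 lost regions 38, or 41.8%, had another region within 1 kb, against 8516 of all 56810 regions, and 22 had one within 250 bp. That neighbour was lower in CCI in 35 of 38 cases, with a median difference of -0.37 against -0.94 for the lost region itself, and none of the 38 neighbours was called. The neighbour was the wider one in 26 of the 38 cases and had the higher level in 25. Among the 426 gained regions 86, or 20.2%, had a neighbour within 1 kb. Their neighbours had a median difference of 0.84 against 1.21 for the gained region itself, 85 of 86 went the same way, and 47 were wider. All 5 lost regions with the largest differences had a neighbour within 250 bp. The largest, chr8:118802711-118803084, stood at 6.28, 6.03 and 6.07 in naïve and at 5.59, 5.05, 3.98, 4.36, 4.51 and 3.73 in CCI libraries, a difference of -1.59 ± 0.34 (SE) in which the CCI libraries were spread widely. It was no longer called without any 1 of 6 libraries, the 3 naïve ones and CCI replicates 3 to 5, with a highest limma p of 0.0034. The others lay at chr7:75744749-75745018, chr9:43514819-43515211, chr5:62071600-62071984 and chr10:15166390-15166651, with differences of -1.18 to -1.31.

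At high levels both directions were seen. The called region with the highest level was lost: chr1:124814470-124817084, 2615 bp wide, stood at 11.11, 10.39 and 10.73 in naïve and at 10.05, 9.70, 9.51, 9.71, 10.13 and 9.60 in CCI libraries. The highest gained region, chr1:55732095-55733033, stood at 9.02, 9.66 and 9.17 in naïve and at 10.12, 10.11, 10.16, 10.20, 9.73 and 10.26 in CCI libraries. The other 2 of each direction, chr8:102158885-102160751 and chr7:41113803-41115530 among the lost and chr1:180971079-180973106 and chr14:47987847-47989305 among the gained, differed by -0.98, -0.86, 1.12 and 0.97. In these 6 regions the step ratio as a covariate brought the size of the difference down to 0.24 to 0.46. All but the regions at chr8:102158885-102160751 and chr1:180971079-180973106 lost their call when any of at least 6 of the 9 libraries was left out. The first of these 2 lost its call only without naïve replicate 1, and the second only without naïve replicate 1 or 3.

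Called regions were unevenly spread over the classes of width, level, neighbourhood and chromosome. By width, gained regions were most frequent above 250 and up to 400 bp, with 1.11%, and least frequent in the class just below 1500 bp, with 0.39%. Lost regions were most frequent at 1500 bp or more, with 7 of 1625 (0.43%), and least frequent in that same class just below 1500 bp (0.05%). In the widest class 15.4% of regions lay wholly below naïve, the highest share of any width. The median difference was -0.11 there and -0.12 at 250 bp or less, so it did not order with width.

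By mean level over the 9 libraries, in 10 classes of equal size, class 1 with the lowest levels held 1.39% gained regions, class 7 held 0.40% and class 10 held 0.77%. Lost regions made up 0.25% of class 4 and 0.04% of class 9. The share wholly below naïve was 1.87% in class 1 and 12.6% in class 10, where 6.02% lay wholly above. Ordered by the naïve libraries instead, class 1 held 227 of the 426 gained regions, and that order shares its error with the difference.

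**Figure D2:**
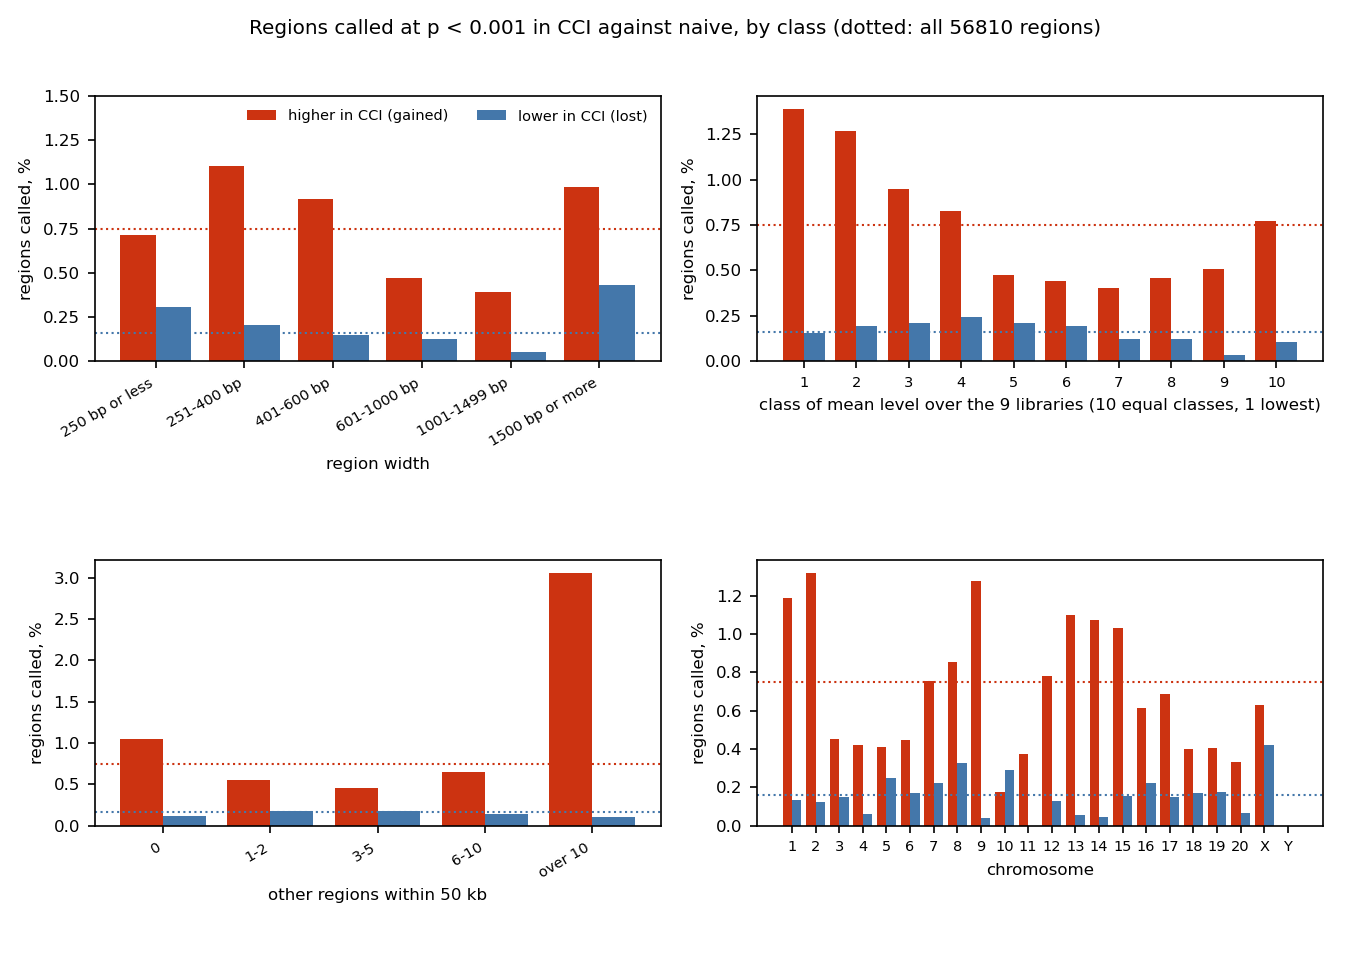
Percent of regions gained (red) and lost (blue) at p below 0.001 (y axes) by width, level, number of other regions within 50 kb and chromosome (x axes); dotted lines mark the shares over all regions. Regions with over 10 others within 50 kb stand out with 3.06% gained, and chromosome 10 has more lost than gained regions.

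By number of neighbours, the share gained was highest where regions were dense. Regions with over 10 others within 50 kb numbered 3763, and 115 of them were gained, 3.06%, against 0.45% to 1.05% in the other classes of neighbour number. In the same class 4 regions were lost, 0.11%. Of its regions 12.6% lay wholly above naïve and 62.1% had a positive difference, with a median of 0.14. The median CFA difference in the class was 0.08, and the median CCI difference with the step ratio as a covariate was -0.03. By distance to the nearest region, the share gained was 1.19% at 100 kb or more, 1.08% at 1 to 5 kb and 0.48% at 20 to 50 kb. The share lost was 0.45% under 1 kb and 0.09% at 5 to 20 kb.

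Neighbouring regions moved together, the more so the closer they were. Consecutive regions less than 1 kb apart had differences of the same sign in 71.7% of 4492 pairs, with r = 0.68 across pairs. At 5 to 20 kb these were 57.0% and 0.36, and at 100 kb or more 53.5% and 0.14. These pairs share their libraries and their place in the genome and are a description, not a test. The nearest region on either side of a gained region had a median difference of 0.55, and that of a lost region -0.18.

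The gained regions were bunched. Of the 517 called regions 192 fell into 58 groups in which each called region lay within 100 kb of the next, and these groups held 189 gained regions (44.4% of the gained) and 3 lost ones (3.30% of the lost). The largest group, at chr1:180533660-181383328, spanned 850 kb and held 35 gained regions. All 102 regions inside it were higher in CCI, with a median difference of 1.18, and the 67 that were not called had a median of 1.10. Its naïve libraries had median levels of 5.98, 6.65 and 6.31 and its CCI libraries 6.94, 7.82, 8.07, 7.45, 6.62 and 7.85. CCI replicate 5 thus lay just below naïve replicate 2, and the other CCI libraries were above all naïve ones.

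The second group, at chr13:33475654-33814160, held 11 gained regions, and all of its 44 regions were higher in CCI, with a median of 1.07. A further 4 groups held 5 gained regions each, at chr7:22323298-22406648, chr12:229915-409733, chr2:156173233-156283729 and chr19:27230408-27357635, and they tie for the remaining places among the largest. In these 4 groups, of 16 to 20 regions each, all regions were higher in CCI, with medians of 0.79 to 1.06. With the step ratio as a covariate the medians of the 6 groups were -0.17 to 0.35, and none of their regions was called. The CFA medians over the same regions were -0.04 to 0.21.

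**Figure D3:**
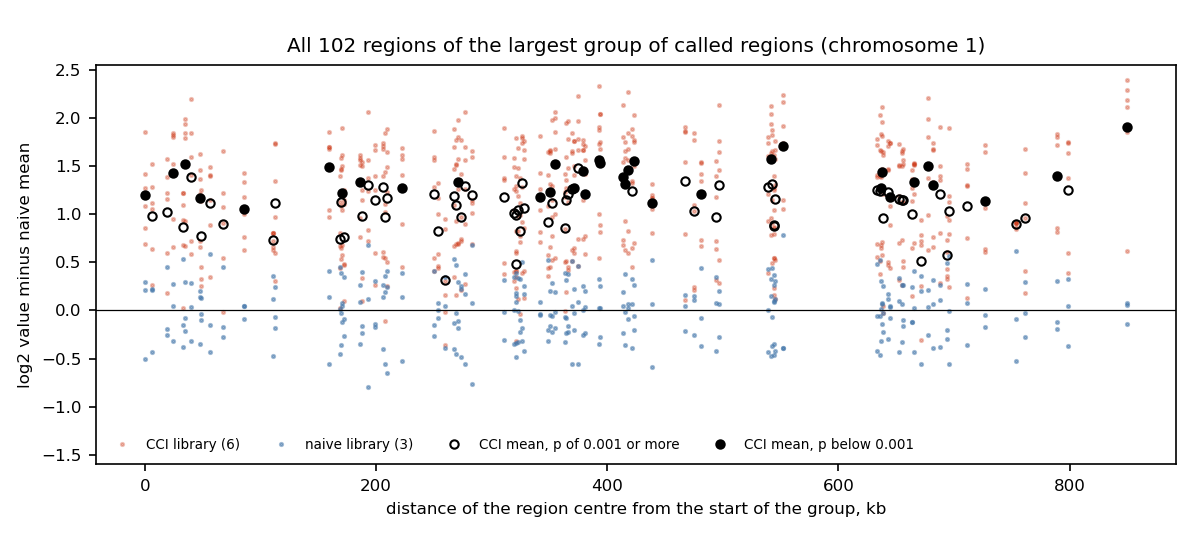
Difference from the naïve mean (y axis, log2) of the 102 regions in the largest group of called regions against distance from the group's start (x axis, kb); small points are single libraries and black circles CCI means, filled where p is below 0.001. All 102 CCI means lie above 0, called or not.

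Such blocks occurred at many places. Runs of at least 5 regions with over 10 others within 50 kb gave 237 dense spans with 3471 regions. Their median CCI differences fell into a broad set around 0 and a second set well above it. In 143 spans the median was below 0.1, with a median difference of -0.10 over their 1745 regions, and 35.0% of these regions were positive. In 67 spans on 16 chromosomes the median was 0.5 or more, up to 1.21, and 97.5% of their 1323 regions were positive, all of them in 46 spans. The remaining 27 spans lay between. The 67 shifted spans were chosen by their difference, so their counts are a description. They held 111 gained regions (8.39% of their regions and 26.1% of all gained) and no lost one, and 31.2% of their regions lay wholly above naïve. The shifted spans were most numerous on chromosome 1, with 15, followed by chromosome 2 with 10 and chromosomes 7 and 9 with 9 each. Their levels and widths were close to those of the spans with a median below 0.1, with a median level of 6.18 against 6.23 and a median width of 577 bp against 567 bp. In CFA the same 67 spans had medians of -0.23 to 0.27.

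**Figure D4:**
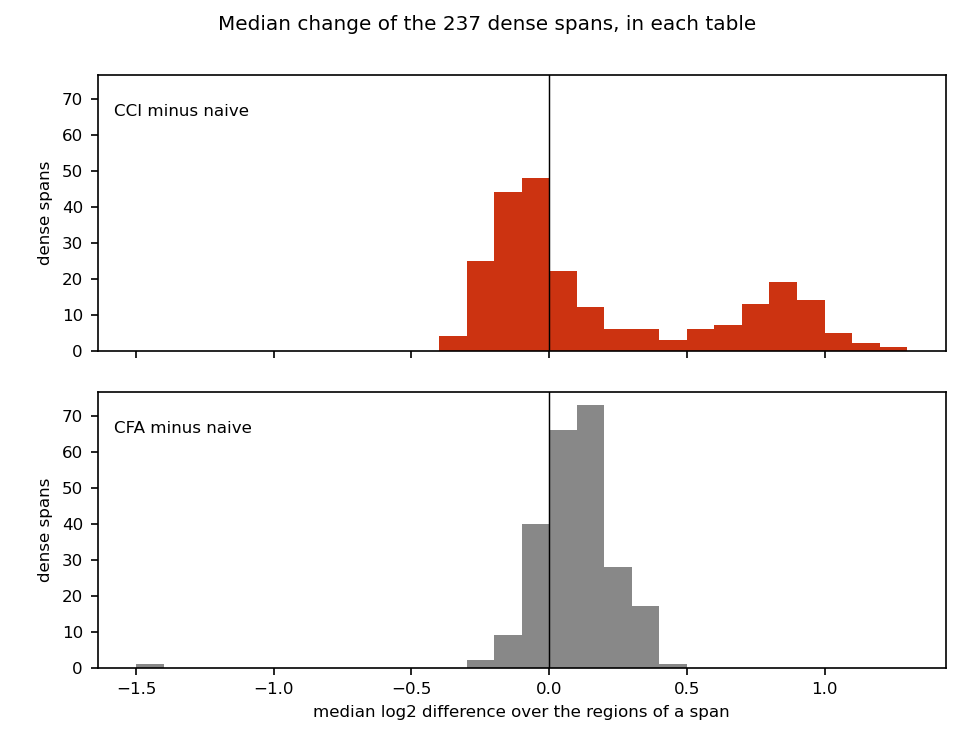
Number of dense spans (y axes) by the median log2 difference of their regions (x axis), for CCI minus naïve (top) and CFA minus naïve (bottom), 237 spans in each. The CCI panel has a second set of 67 spans from 0.5 up to 1.21; in the CFA panel no span is above 0.44, and 1 lies at -1.46.

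The libraries were ordered within the shifted spans. Over the 1323 regions the median difference from the naïve mean was -0.12, 0.13 and 0.01 in naïve replicates 1 to 3 and 0.37, 1.08, 1.33, 0.84, 0.21 and 1.20 in CCI replicates 1 to 6. The CCI libraries all lay above the naïve ones, but CCI replicate 5 by only a small margin. The order of the 9 libraries was that of their step ratios from high to low, except that CCI replicates 2 and 4, with step ratios of 6.24 and 6.20, changed places. The runs did not separate the libraries: CCI replicates 1 and 2, of 2 runs, stood at 0.37 and 1.08, within the range of the libraries of 1 run. With the step ratio as a covariate the median difference over these regions was -0.07.

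**Figure D5:**
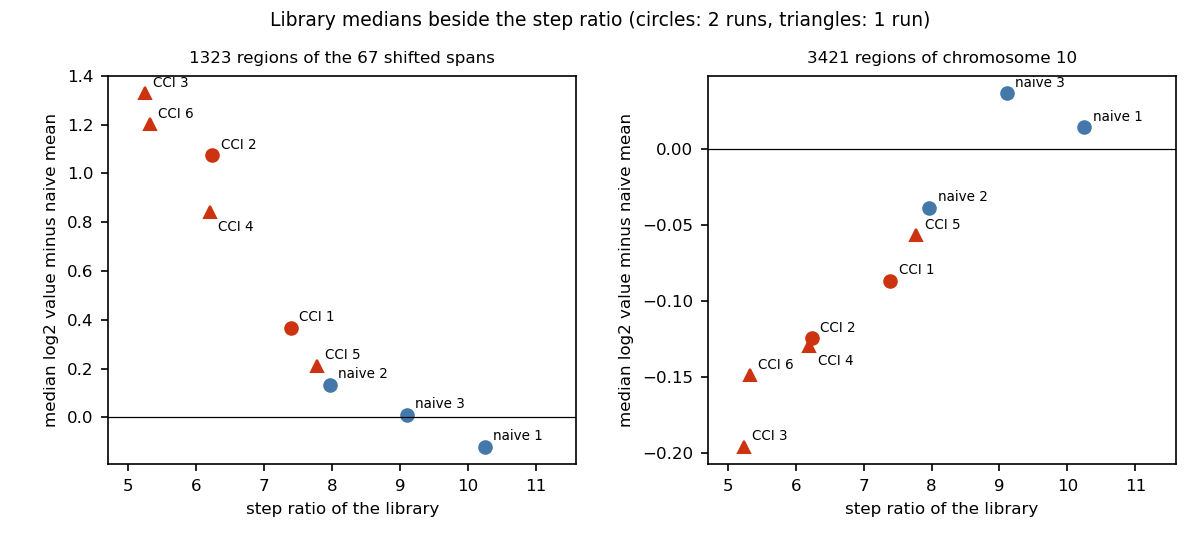
Median difference from the naïve mean (y axes, log2) in the shifted dense spans (left) and on chromosome 10 (right) against the library's step ratio (x axes), for naïve (blue) and CCI (red) libraries. Libraries with a low step ratio lie high in the shifted spans, up to 1.33, and low on chromosome 10, down to -0.20.

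By chromosome, the share gained was highest on chromosomes 2, 9 and 1, with 1.32%, 1.28% and 1.19%, and lowest, the Y chromosome aside, on chromosome 10, with 0.18%. Chromosome 10 was the only chromosome with more lost than gained regions, 10 against 6 of 3421. There 29.8% of regions had a positive difference, the median was -0.14 and 8.77% of regions lay wholly below naïve against 1.11% wholly above. The library medians on chromosome 10 were 0.01, -0.04 and 0.04 from the naïve mean in naïve libraries and -0.06 to -0.20 in CCI libraries, so the groups did not overlap. The median was -0.02 with the step ratio as a covariate and 0.07 in CFA. On chromosome 11 none of 1607 regions was lost and 6 were gained.

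The X chromosome held 6 gained and 4 lost regions of 955. The gained ones differed by 1.06 to 1.67 and the lost ones by -0.73 to -0.95. The median difference over the X chromosome was -0.14 against -0.04 on the autosomes, and its library medians overlapped between the groups, with -0.03 to 0.03 in naïve and -0.28 to 0.02 in CCI libraries. No region of the Y chromosome was called.

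CFA ganglia, compared with the same naïve libraries in their own table, had 321 gained regions (0.565%) and 316 lost regions (0.556%). The CFA median over the regions gained in CCI was 0.32 and over those lost in CCI -0.49. Because both comparisons use the same naïve rats, a naïve library that stands apart moves both.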

How the data were processed

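ATAC-seq of rat DRG was analysed in 6 CCI and 3 naïve libraries, with 6 CFA libraries beside them. Groups, replicate numbers and runs came from the sample labels, and runs of 1 library were counted as 1. The authors deposited log2 normalized coverage per consensus region. They had aligned reads to rn6, kept a mapping quality of at least 10, removed duplicates, downsampled each library to a fixed number of insertion sites and counted reads in peaks. The submitters' processing notes name Bowtie2, MACS2, limma and CASAVA 1.8.2. The columns have nearly the same distribution: values at the same rank in the 9 CCI and naïve columns span at most 0.1 at 97.5% of ranks, with a largest span of 1.07. Quantile normalization with ties gives such columns and lowers whole-genome shifts, but the methods do not name that step. ATAC-seq depth is unknown from normalized values. The RNA-seq table was not used. Coordinates are 1-based, on rn6, and widths include both ends. RefSeq sequences are on build GRCr8 and were matched by gene symbol, 2 of 2.

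Each region was tested with limma 3.58.1 in R 4.3.3 (linear model, moderated variances, two-sided), at an unadjusted p of 0.001 as in the study, and p-values adjusted by Benjamini and Hochberg are also given. Classes and figures were made in Python 3.11.15 (pandas 2.3.3, numpy 2.4.6, matplotlib 3.10.9). An exact two-sided permutation test was made over the 84 ways to assign 3 naïve labels. It gave 0.0238, the smallest p it can give, for each of the 40 named regions. Any region whose groups do not overlap reaches this value, with 3.85% of all regions wholly above naïve and 5.26% wholly below. The named regions were called in the same libraries, so this test adds no separate evidence for them. P-values measure the spread between rats of 1 study. The fit was tested on simulated data. The regions and classes were chosen with earlier results of these data known. Named were the 12 gained and 12 lost regions with the smallest p, the 5 of each with the largest difference, the 3 of each with the highest level, the largest groups of called regions, those within 1 kb of a gene start or cloned by the study, and called regions on X and Y. The Vom2r regions all fell under this rule. Groups of equal size were all named. Gene names are those the study gives. Gene lists that need an rn6 annotation were not analysed here. Alternatives were other priors, weights, normalizations, filters and thresholds, a replicate block, the step ratio, 2-run libraries and leaving out each library; leaving out regions with over 10 others within 50 kb was added after seeing the data, as were the dense spans and their median of 0.5.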

Additional observations from a re-analysis of the deposited data

Results flagged for a closer look

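In 4 results 1 CCI library stood apart from the other 5 by more than Dixon's 95% limit for 6 values. Chance exceeds this limit in about 1 of 20 groups. The 40 named regions were screened, with the chromosomes and other classes beside them, so a few such flags can arise by chance. At the gained region chr1:55732095-55733033 CCI replicate 5, at 9.73 against 10.1 to 10.3 in the others, was separated by 0.718 of the range. Over the regions of chromosome 14 CCI replicate 1 had a median of 0.03 from the naïve mean, above the other CCI libraries at -0.01 to 0.00, separated by 0.662 of the range. Over the regions of chromosome 19 CCI replicate 4 had a median of -0.12, below the others at -0.02 to -0.05, separated by 0.654. Over the regions with no other region within 50 kb CCI replicate 5 had a median of -0.03, below the others at 0.02 to 0.05, separated by 0.644. No cause was tested.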

How the results depend on the processing

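The count of gained regions, 426, stayed within 1.5 times under a robust prior, normal scores and cyclic loess. It also did so with a filter at the 25th percentile of level and with a minimum log2 difference of 1. The same held for the replicate block, in which fewer CCI libraries enter the difference, as given below. Without the regions that have over 10 others within 50 kb the count did so as well (311). It was 955 with an intensity trend, 808 with sample quality weights, 40 with the step ratio covariate, 89 with the CCI libraries of 2 runs only, 64 at p below 0.0001 and 2110 at p below 0.01. The count of lost regions, 91, was 239, 242, 18, 38, 3 and 1071 under the same 6 settings, and 21 with a minimum log2 difference of 1. The 9 regions with an adjusted p below 0.05 became 1277 with the trend, 851 with weights, 18 with normal scores, 3 with the 2-run libraries and 0 with the step ratio covariate. The filter also left 0. All 9 lie below its limit and were removed by construction, and no other region passed in the filtered fit. In the main fit, without filter or covariate, 9 regions were left, and 9111 of the 56810 regions had an unadjusted limma p under 0.05. The cause of the other changes was not tested.

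Leaving out 1 library at a time gave 163 to 881 gained, 14 to 144 lost and 4 to 622 regions with an adjusted p below 0.05. The gained count moved by over 1.5 times without naïve replicates 1, 2 and 3 (163, 269 and 190), CCI replicates 1 and 2 (732 and 264), and CCI replicates 4, 5 and 6 (275, 881 and 257). The lost count did so without the naïve replicates (14, 38 and 22) and CCI replicates 1, 4 and 6 (144, 50 and 58). The adjusted count was highest without CCI replicates 5 (622) and 1 (283).

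Same-numbered CCI and naïve libraries deviated together with r of -0.06, 0.07 and -0.03, so the numbers do not pair them. CCI replicates 4 to 6 have no naïve library of the same number, so in the replicate block they do not enter the difference. The block thus compares only replicates 1 to 3 of each group. It gave 370 gained, 14 lost and 1 region with an adjusted p below 0.05. Only 158 of the 426 gained regions (37.1%) and 2 of the 91 lost regions were among its calls.

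The median difference at 1500 bp or more minus that at 250 bp or less was 0.013. It was 0.086 with the filter and -0.093 with the step ratio covariate, and -0.0029 to 0.038 without single libraries. The highest minus the lowest class of level gave -0.0036, 0.075 with the covariate, -0.38 ordered by the naïve mean, 0.15 ordered by the CCI mean and -0.022 to 0.018 without single libraries. Regions 100 kb or more from the nearest minus those under 1 kb gave 0.14, -0.012 with the covariate and 0.11 to 0.19 without single libraries. The X chromosome minus the autosomes gave -0.097, 0.035 with the covariate and -0.12 to -0.068 without single libraries. The filter was not run for the classes of level.

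No named region changed direction under any setting in which it was fitted, and the filter kept 22 of the 40. The regions were chosen for their difference in the same libraries, so an unchanged direction was largely set by that choice. Of the 40, 6 stayed called with the step ratio covariate, 11 with the 2-run libraries and 12 with the replicate block.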
